A study of Mus musculus with 6 samples.

Results

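The genes described here carry fatty acids into the cell and break them down in mitochondria, and 32 of the 33 listed members were among the 12969 genes of the table and were analysed. They were chosen by symbol from a list of genes of fatty acid uptake, activation, transport and oxidation and of the regulators of these steps. Cpt1b, the muscle form of carnitine palmitoyltransferase 1, is not analysed here. The mice were male and about 12 weeks old; a coronary artery of the left ventricle (the left anterior one) had been tied off for good 4 days earlier, and RNA came from the whole infarct of the perfused heart. Infarct tissue came from 3 IRF3-/- mice, called Irf3KO below, and from 3 wild-type mice of the C57BL/6 strain, called WT. The sources used here do not name the strain background of the IRF3-/- mice. The comparison addresses which transcripts of the infarct differ when Irf3, a transcription factor that switches on interferon genes, is disrupted.

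Fatty acids are the main fuel of the healthy adult heart. They are freed from lipoproteins by lipoprotein lipase, taken up through Cd36 and fatty acid transport proteins, bound to fatty acid binding protein, activated to acyl-CoA, moved into mitochondria as carnitine esters and shortened step by step in beta-oxidation, which hands electrons to the respiratory chain through the electron transfer flavoproteins. Many of the genes are targets of the nuclear receptor PPAR alpha and its coactivator PGC-1 alpha, encoded by Ppara and Ppargc1a. Cardiomyocytes are rich in mitochondria and in these enzymes, and an infarct holds surviving or dying cardiomyocytes beside leukocytes and fibroblasts.

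Values were RPKM, that is reads scaled to gene length and to library depth, and the 12913 genes that averaged 1 RPKM or more, all 32 members among them, were tested with limma on log2(RPKM + 1). Depth, estimated from the smallest gaps among low values, was 14.8, 18.1 and 61.9 M reads for Irf3KO replicates 1 to 3 and 15.7 to 20.8 M for the WT libraries. Irf3 itself stood at 7.40, 8.74 and 7.68 RPKM in Irf3KO replicates 1 to 3, against 13.8, 13.9 and 11.6 RPKM in WT replicates 1 to 3, so it was lower in every Irf3KO library and was still read (log2 fold change -0.65 ± 0.18, SE; limma adjusted p = 0.344). Irf3KO replicate 2 stood apart from the rest, with a mean correlation of 0.907 with the other libraries, where the others had 0.941 to 0.966. Its RPKM values summed to 666954 over the genes tested, against 329484 to 410733 in the other libraries. Sums of RPKM given below are therefore not shares of a like total. The cells of the infarct were read in all libraries: all 18 cardiomyocyte contractile genes, 17 of 18 listed macrophage markers and all 10 fibroblast markers were measured.

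Most members had higher mean values in Irf3KO infarcts, but no member passed the test. Of 32 members 30 had a log2 fold change above 0, where 40.7% of all genes tested did, and the median over the members was 0.46, against -0.09 over all genes. None was called higher (0.147% of all genes were) and none lower (0.356% of all genes were) at a limma adjusted p under 0.05. At an unadjusted p under 0.05, 3 members were higher, Ucp3, Mlycd and Etfb (2.45% of all genes were), and 0 lower (5.96% of all genes were). The ratio of mean RPKM between Irf3KO and WT ran from 0.750 for Ppargc1a to 2.47 for Ucp3, with a median of 1.32. With limma array weights, which weight Irf3KO replicate 3 and WT replicate 2 most, 10 members were called higher (9.36% of all genes were). These weights were estimated gene by gene, because limma's default estimate did not converge. The adjusted p without weights was 0.556 for 18 members and higher for the other 14. In 3 members, Slc27a1, Mlycd and Etfb, every Irf3KO library lay above every WT library, a pattern seen in 6.61% of all genes, and in 0 members every Irf3KO library lay below (11.8% of all genes). These intervals are wide: for 25 of the 32 members the 95% interval of the log2 fold change reached 1 or more.

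**Figure D1:**
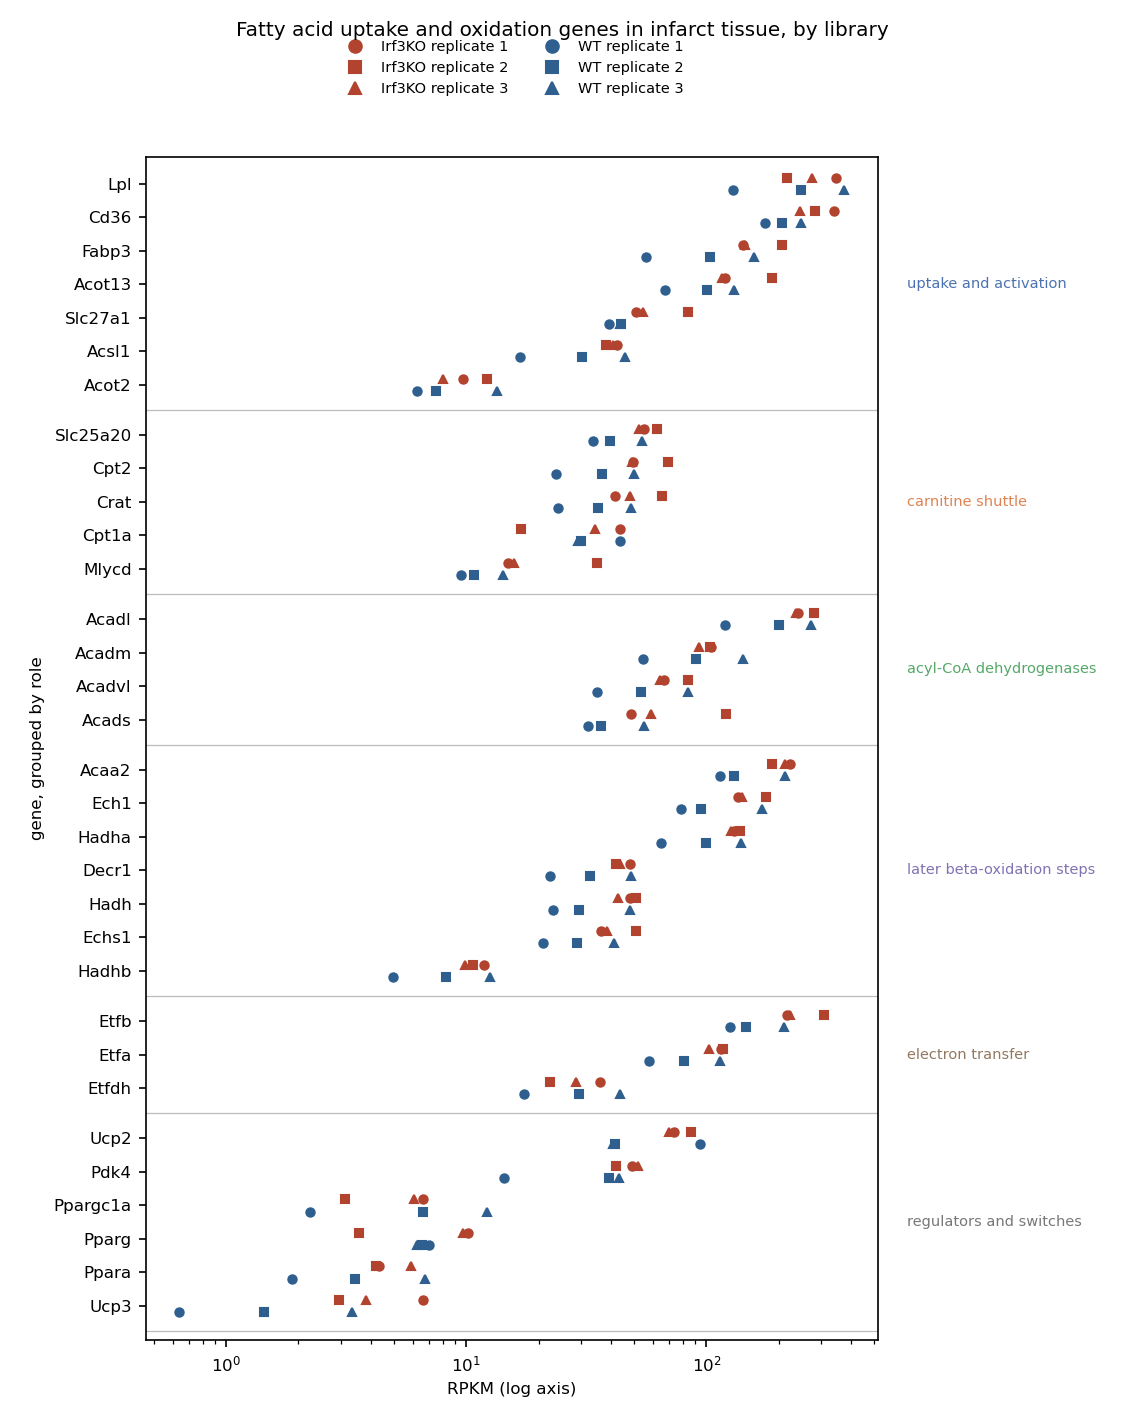
RPKM of each of the 32 members (log axis) in each library, grouped by role, with the 3 Irf3KO libraries (red) above the 3 WT libraries (blue) in each row and marker shapes for replicates 1, 2 and 3. WT replicate 1 (blue circle) is the lowest point of 29 of the 32 rows, the exceptions being Cpt1a, Pparg and Ucp2.

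The spread among WT animals was larger than the spread among Irf3KO animals for most members. The highest WT library was a median of 2.14 times the lowest, against 1.40 times among Irf3KO libraries, and the WT ratio was the larger one for 27 of 32 members. These spreads were not computed over all genes, so whether the wider WT spread is particular to the members was not tested. WT replicate 1 was the lowest of all 6 libraries for 29 members, where it was the lowest for 16.8% of all genes. WT replicate 3 was above both Irf3KO replicate 1 and Irf3KO replicate 3 for 19 members, 59.4%, where it was for 34.1% of all genes. It was above the mean of all Irf3KO libraries for 16 members, 50%, where it was for 53.3% of all genes. Relative to the WT mean, the median of the members was 0.40, 0.55 and 0.38 on the log2 scale in Irf3KO replicates 1 to 3, against -0.51, -0.0065 and 0.54 in WT replicates 1 to 3. WT replicate 3 thus lay within the Irf3KO range and the other WT libraries below it. Without WT replicate 1 the median fold change of the members was 0.22 on the log2 scale and 25 members were above 0; without WT replicate 3 it was 0.70 with 31 above 0. The number of members with an unadjusted p under 0.05 was 20 without WT replicate 3 (3.74% of all genes were higher at that limit), 1 without WT replicate 1 and 0 without WT replicate 2. Without WT replicate 1 and without WT replicate 2, 7.07% and 4.02% of all genes were under that limit, in either direction. With the replicate number as a block the number of members was 6 (3.71% of all genes were higher at that limit). Without Irf3KO replicate 2 all 32 members were above 0, with a median of 0.40. No member was called in any of these 6 fits that left out a library.

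Cardiomyocyte transcripts were lowest in WT replicate 1, as 29 of the 32 members were, with Cpt1a, Pparg and Ucp2 as the exceptions. The 18 contractile genes, such as Actc1 and Tnnt2, had fold changes with a median of 0.56 (log2), all 18 above 0 and none called (1 with an unadjusted p under 0.05). Their summed level ran from 15074 to 26983 RPKM in Irf3KO libraries and from 7358 to 20166 RPKM in WT libraries. It was lowest in WT replicate 1 and highest in Irf3KO replicate 2, the library with the largest RPKM total. Macrophage markers summed to 3954 to 9143 RPKM in Irf3KO and 4094 to 8750 RPKM in WT. Fibroblast markers summed to 3765 to 5196 RPKM in Irf3KO and 5901 to 6599 RPKM in WT, and these sums did not overlap. By gene, every Irf3KO library lay below every WT library for 3 of 10 fibroblast markers and 1 of 17 macrophage markers. That pattern was seen in 11.8% of all genes. A log2 fold change above 0 was found for 4 of 17 macrophage markers and 1 of 10 fibroblast markers. In either list 0 were called (2 macrophage markers and 1 fibroblast marker were lower at an unadjusted limma p under 0.05). When each library was set against the mean log2 level of its own contractile genes, which differed by 0.60 between Irf3KO and WT, the median of the members was -0.14, with 7 of 32 above 0 and none called. Over all 12913 genes tested the median on that scale was -0.69, with 535 above 0. Library by library the median of the members was 0.11, -0.41 and -0.16 in Irf3KO replicates 1 to 3, against 0.37, -0.17 and -0.19 in WT replicates 1 to 3, relative to the WT mean. The members thus spanned a smaller range than the contractile genes, reading high against them in WT replicate 1 and low in Irf3KO replicate 2. On that scale 24 members lay between -0.3 and 0.3, and the standard errors were 0.59 to 0.67. Limma draws each of these errors towards a spread shared with other genes, so they are not the spread of the members alone. That no member was called on this scale therefore says little. The median of the members was 0.06 without WT replicate 1 and -0.02 without Irf3KO replicate 2. In bulk tissue fewer cells of a type and less RNA per cell cannot be told apart, and the part of cardiomyocyte content in the member values was not tested beyond this.

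**Figure D2:**
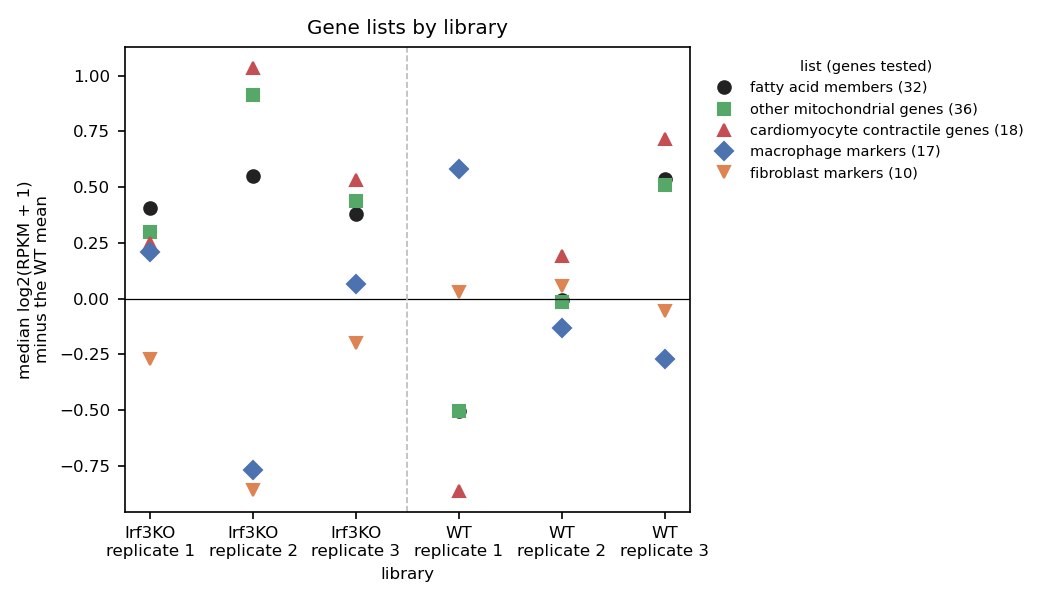
Median log2(RPKM + 1) of 5 gene lists in each library, minus the WT mean of each gene, with Irf3KO libraries left of WT libraries. The members, the other mitochondrial genes and the contractile genes are lowest in WT replicate 1, and the macrophage markers are highest there at 0.58.

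Mitochondrial genes outside fatty acid oxidation had a like pattern. Across the 36 listed genes, such as Cox4i1 and Atp5a1 of the respiratory chain, the median was 0.56 on the log2 scale, 35 were above 0, and none was called (3 had an unadjusted p under 0.05). Relative to the contractile genes their median was -0.04. The 24 measured genes of glucose use had a median of 0.36, with 19 above 0 and none called (2 with an unadjusted p under 0.05). Of the 5769 other genes that averaged 10 RPKM or more, the 5 whose profile over the 6 libraries was most like the mean profile of the members were Suclg1, a subunit of succinyl-CoA ligase in the citrate cycle (r = 0.995), Prdx3, the mitochondrial peroxiredoxin (r = 0.993), Gm12231 (r = 0.992), Dcaf8 (r = 0.990) and Grsf1, an RNA-binding protein of mitochondria (r = 0.990). These are Pearson correlations over 6 libraries that share WT replicate 1 as their low point, given as a description.

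Genes of fatty acid uptake and activation held the 2 members with the highest mean RPKM, Lpl and Cd36. Lpl, the lipoprotein lipase, had the highest mean of all members: 348, 216 and 275 RPKM in Irf3KO replicates 1 to 3, against 129, 248 and 375 RPKM in WT replicates 1 to 3. The highest and the lowest value both came from WT animals, and the log2 fold change was 0.26 ± 0.40 (SE, n = 3 per group; limma adjusted p = 0.761). Cd36, the main fatty acid translocase, stood at 338, 283 and 245 RPKM in Irf3KO libraries, against 176, 207 and 249 RPKM in WT libraries. Its groups overlapped only between Irf3KO replicate 3 and WT replicate 3, with a log2 fold change of 0.46 ± 0.26 (adjusted p = 0.556).

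Slc27a1, the fatty acid transport protein of heart and skeletal muscle, was the member of this class whose groups did not overlap. It stood at 51.1, 84.2 and 54.3 RPKM in Irf3KO libraries, against 39.4, 44.1 and 43.7 RPKM in WT libraries. The WT libraries lay close together and Irf3KO replicate 2 was far above the rest, and the log2 fold change was 0.53 ± 0.24 (adjusted p = 0.556). Fabp3, the fatty acid binding protein of heart muscle, stood at 142, 207 and 144 RPKM in Irf3KO libraries, against 56.1, 104 and 158 RPKM in WT libraries. Here WT replicate 3 exceeded both Irf3KO replicates 1 and 3, and the log2 fold change was 0.73 ± 0.38 (adjusted p = 0.556).

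The remaining genes of this class were Acsl1, which activates long-chain fatty acids to acyl-CoA, and the thioesterases Acot13 and Acot2, which split acyl-CoA. Their log2 fold changes were 0.49 ± 0.33, 0.52 ± 0.31 and 0.17 ± 0.29 (adjusted p = 0.561, 0.556 and 0.774). Acsl1 ran from 38.1 to 42.6 RPKM in Irf3KO libraries and from 16.7 to 45.8 RPKM in WT libraries. Acot2 has a close copy, Acot1, and the sources used here do not say how reads that map to both were counted, so its value is uncertain. Over the 7 members of the class the median log2 fold change was 0.49, and all 7 were above 0.

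**Figure D3:**
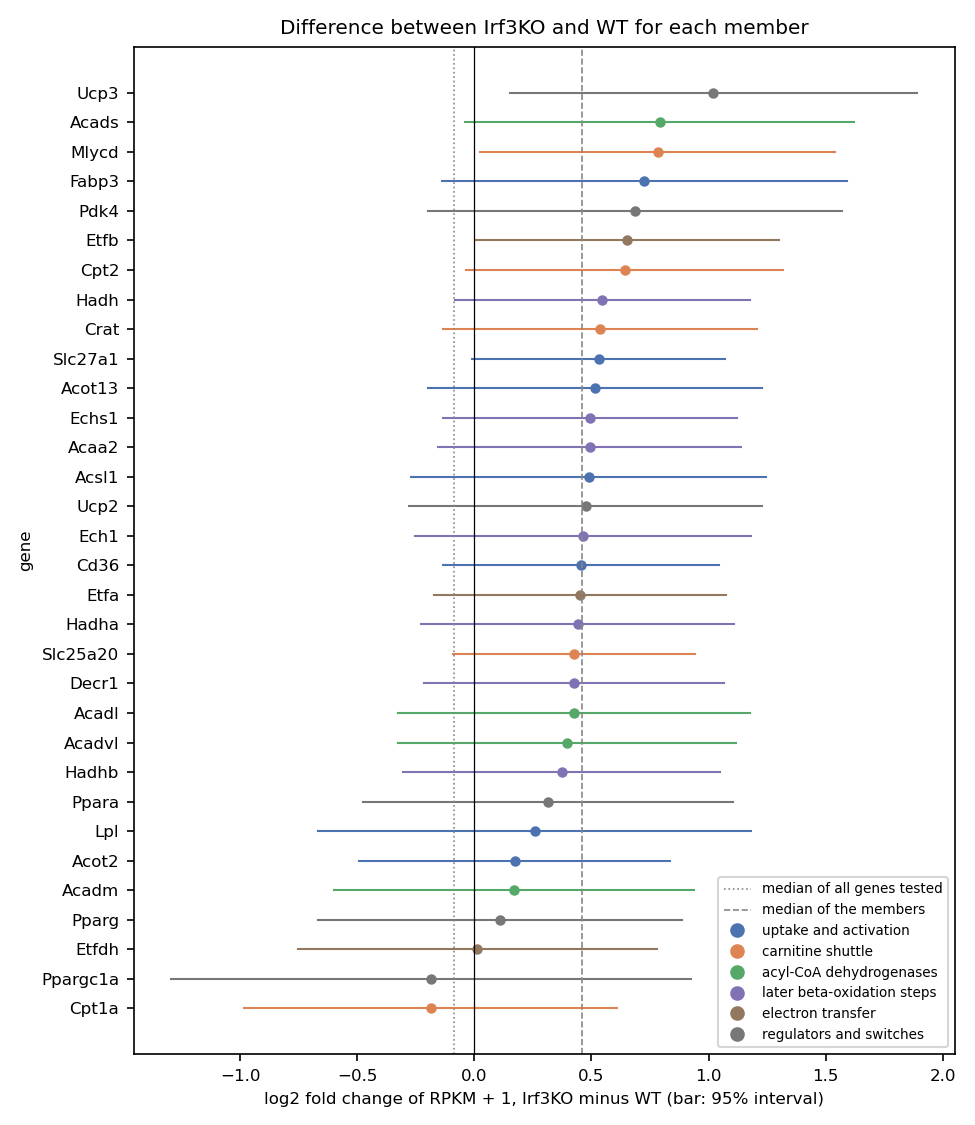
Log2 fold change of RPKM + 1 between Irf3KO and WT for each member, with its 95% interval from limma, coloured by role, and lines for the median of the members (0.46) and of all genes tested (-0.09). Every interval except those of Ucp3, Mlycd and Etfb includes 0, and Cpt1a and Ppargc1a are the only members below 0.

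In the carnitine shuttle, Cpt1a had another pattern than the rest. It encodes the liver form of carnitine palmitoyltransferase 1, the gate of mitochondrial fatty acid entry, which many cells other than cardiomyocytes use. It stood at 43.8, 16.9 and 34.4 RPKM in Irf3KO libraries, against 43.8, 29.9 and 29.1 RPKM in WT libraries. Irf3KO replicate 2 was the lowest library and WT replicate 1 was level with Irf3KO replicate 1 at the top, and the log2 fold change was -0.19 ± 0.35 (adjusted p = 0.799), or 0.20 ± 0.22 without Irf3KO replicate 2. The macrophage markers had their lowest median, -0.77 relative to the WT mean, in that same library and their highest, 0.58, in WT replicate 1; their part in the Cpt1a values was not tested. The profile of Cpt1a correlated at r = -0.50 with the mean of the other members over the 6 libraries, while 23 members had r above 0.8.

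The other shuttle genes followed the group. Slc25a20, the carrier of acylcarnitine across the inner membrane, stood at 54.9, 62.4 and 52.3 RPKM in Irf3KO libraries, against 33.7, 39.7 and 54.2 RPKM in WT libraries (log2 fold change 0.43 ± 0.23, adjusted p = 0.556). Cpt2, which turns acylcarnitine back into acyl-CoA inside mitochondria, stood at 49.6, 69.5 and 49.2 RPKM in Irf3KO libraries, against 23.6, 36.6 and 50.1 RPKM in WT libraries (0.64 ± 0.30, adjusted p = 0.556). For both genes WT replicate 3 lay among the Irf3KO libraries. Crat, which makes acetylcarnitine from surplus acetyl-CoA, stood at 41.5, 65.5 and 48.0 RPKM in Irf3KO libraries, against 24.1, 35.4 and 48.6 RPKM in WT libraries (0.54 ± 0.29, adjusted p = 0.556). Mlycd degrades malonyl-CoA, the inhibitor of carnitine palmitoyltransferase 1. It stood at 14.9, 35.0 and 15.8 RPKM in Irf3KO libraries, against 9.54, 10.8 and 14.2 RPKM in WT libraries, with no overlap but with Irf3KO replicate 1 close to WT replicate 3. Its log2 fold change was 0.78 ± 0.33 (adjusted p = 0.556).

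The acyl-CoA dehydrogenases, which start each round of beta-oxidation for chains of different length, were all above 0 with overlapping groups. Acadl, for long chains, stood at 240.0, 281 and 236 RPKM in Irf3KO libraries, against 119, 201 and 273 RPKM in WT libraries (log2 fold change 0.43 ± 0.33, adjusted p = 0.576). The Irf3KO libraries lay above WT replicates 1 and 2, and WT replicate 3 lay among them. Acads, for short chains, stood at 48.6, 121 and 58.8 RPKM in Irf3KO libraries, against 32.3, 36.4 and 54.95 RPKM in WT libraries (0.79 ± 0.36, adjusted p = 0.556). Irf3KO replicate 2 read far above the others for this gene. Acadvl, for very long chains, and Acadm, for medium chains, stood at 0.39 ± 0.31 and 0.17 ± 0.34 on the log2 scale (adjusted p = 0.582 and 0.807). Acadm was at -0.18 ± 0.25 without WT replicate 1.

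The later steps of beta-oxidation were the most uniform class, with 7 members between 0.37 and 0.55 and a median of 0.46. Acaa2, the thiolase that releases acetyl-CoA, stood at 222, 187 and 212 RPKM in Irf3KO libraries, against 114, 131 and 212 RPKM in WT libraries (log2 fold change 0.49 ± 0.28, adjusted p = 0.556). Hadh, the hydroxyacyl-CoA dehydrogenase for shorter chains, stood at 47.9, 51.1 and 43.0 RPKM in Irf3KO libraries, against 23.0, 29.4 and 48.1 RPKM in WT libraries (0.55 ± 0.27, adjusted p = 0.556). In both genes WT replicates 1 and 2 lay below all Irf3KO libraries and WT replicate 3 among them. Echs1, the enoyl-CoA hydratase, and Decr1 and Ech1, which handle unsaturated chains, stood at 0.50 ± 0.27, 0.43 ± 0.28 and 0.46 ± 0.31 (adjusted p = 0.556, 0.556 and 0.561).

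Hadha and Hadhb encode the alpha and beta subunits of the mitochondrial trifunctional protein and start next to each other on opposite strands. Hadha stood at 130, 138 and 127 RPKM in Irf3KO libraries, against 65.0, 99.4 and 139 RPKM in WT libraries (log2 fold change 0.44 ± 0.29, adjusted p = 0.556). Hadhb stood at 11.8, 10.7 and 9.85 RPKM in Irf3KO libraries, against 4.97, 8.24 and 12.6 RPKM in WT libraries (0.37 ± 0.30, adjusted p = 0.580). Per length, the ratio of Hadha to Hadhb was 12.3 ± 1.11 in Irf3KO and 12.1 ± 1.0 in WT (SD, n = 3 per group), between 10.97 and 13.1 in all 6 libraries, while each gene varied more than 2-fold among the WT libraries. The size of the ratio rests on the gene lengths of the deposited table, 5341 and 6595 bases, and on how reads shared with copies of these genes were counted. In the RefSeq annotation of GRCm38.p6 the annotated starts lie 273 bases apart, and the windows from 250 bases before to 50 bases after each start overlap by 228 bases. They are shown because the pair shares its start region and kept a near-constant ratio. Most members varied together, however: 23 had a profile with r above 0.8 with the mean of the other members. Hadha and Hadhb had r = 0.992 and 0.968, and Etfa, on chromosome 9, had r = 0.997. Whether the shared start region has a part in the ratio was not tested. Capitals mark GGGCGG, the GC box, on either strand.
Hadha (GRCm38.p6, chr5:30154931-30155230, minus strand): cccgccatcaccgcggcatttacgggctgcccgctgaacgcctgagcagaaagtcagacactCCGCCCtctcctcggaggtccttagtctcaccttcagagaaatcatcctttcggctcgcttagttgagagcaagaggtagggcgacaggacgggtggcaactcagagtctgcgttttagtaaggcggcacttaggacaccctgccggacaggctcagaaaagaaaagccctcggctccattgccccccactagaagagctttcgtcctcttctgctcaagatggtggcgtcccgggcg
Hadhb (GRCm38.p6, chr5:30155003-30155302, plus strand): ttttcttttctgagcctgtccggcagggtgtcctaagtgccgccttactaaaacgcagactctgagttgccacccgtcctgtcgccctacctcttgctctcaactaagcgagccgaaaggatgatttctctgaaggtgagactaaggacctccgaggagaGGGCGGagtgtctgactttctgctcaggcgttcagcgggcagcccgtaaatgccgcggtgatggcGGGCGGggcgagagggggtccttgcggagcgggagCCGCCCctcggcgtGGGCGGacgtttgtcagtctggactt

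Promoter windows of this kind were available for 27 of the 32 members, 32 windows in all. The GC box GGGCGG was found on either strand in 20 of these 32 windows, 62.5%, those of 18 members, where 35.7% of all 32851 RefSeq windows hold it. The box of the Hadha window, at -188, is the same site as the one at -90 in the overlapping Hadhb window, and both windows are counted. The hexamer AGGTCA, the core that nuclear receptors such as PPAR alpha bind, was found on either strand in 8 of the 32 windows, 25%, those of 7 members (Acadm, Acadvl, Cd36, Cpt1a, Echs1, Pparg and Ucp3), where 16.3% of all windows hold it. The direct repeat of AGGTCA with 1 base of any kind between the copies was in 0 of the 27 and in 0.0396% of all windows, and TCAAGGTCA, the estrogen-related receptor element, was in 0 of the 27 and in 0.423% of all windows. AGGTCA is part of both longer motifs. A match describes these letters in this window only.

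The electron transfer flavoprotein takes electrons from the acyl-CoA dehydrogenases, and its dehydrogenase passes them to ubiquinone. Etfb, its beta subunit, stood at 218, 309 and 223 RPKM in Irf3KO libraries, against 125, 146 and 210 RPKM in WT libraries. All Irf3KO libraries were above all WT libraries, by a narrow margin over WT replicate 3, and the log2 fold change was 0.65 ± 0.28 (adjusted p = 0.556). Etfb lies on chromosome 7, as Irf3 does, with 77 annotated protein-coding genes between them in GRCm38; whether DNA linked to the Irf3 allele differs there was not tested. Etfa, the alpha subunit, was at 0.45 ± 0.27 on the log2 scale (adjusted p = 0.556). Its profile was the closest of all members to the mean of the others (r = 0.997 over 6 libraries). Etfdh, the dehydrogenase, was at 0.01 ± 0.33 (adjusted p = 0.987), with 22.4 to 35.9 RPKM in Irf3KO libraries and 17.4 to 43.5 RPKM in WT libraries.

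Among the regulators, the transcription factor genes Ppara and Pparg and the coactivator gene Ppargc1a were low in level and showed no common direction. Ppara stood at 4.32, 4.22 and 5.89 RPKM in Irf3KO libraries, against 1.88, 3.45 and 6.75 RPKM in WT libraries (log2 fold change 0.32 ± 0.34, adjusted p = 0.664). Ppargc1a stood at 6.61, 3.13 and 6.05 RPKM in Irf3KO libraries, against 2.24, 6.61 and 12.2 RPKM in WT libraries (-0.18 ± 0.48, adjusted p = 0.861). The WT libraries held both the lowest and the highest value of each of these genes. Pparg, the receptor of fat cells and of lipid-handling macrophages, stood at 10.2, 3.57 and 9.71 RPKM in Irf3KO libraries, against 7.0, 6.57 and 6.22 RPKM in WT libraries (0.11 ± 0.34, adjusted p = 0.881). Irf3KO replicate 2 was below and the other Irf3KO libraries above the tight WT group. Of 9 listed fat cell markers, Adipoq and Plin1 among them, only Cidea was analysed here, at 14.1, 36.9 and 18.2 RPKM in Irf3KO libraries, against 8.10, 14.2 and 15.6 RPKM in WT libraries, so its high value was that of Irf3KO replicate 2 alone.

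Pdk4, the kinase that shuts pyruvate dehydrogenase when fatty acids are burnt, stood at 49.1, 41.9 and 52.1 RPKM in Irf3KO libraries, against 14.3, 39.2 and 43.4 RPKM in WT libraries (log2 fold change 0.69 ± 0.39, adjusted p = 0.556). WT replicate 1 alone was low, and the other 5 libraries lay close together. Ucp3, the muscle uncoupling protein, had the largest fold change of the members. It stood at 6.62, 2.94 and 3.82 RPKM in Irf3KO libraries, against 0.64, 1.44 and 3.33 RPKM in WT libraries, which gave 1.02 ± 0.38 on the log2 scale (adjusted p = 0.556), with WT replicate 3 above Irf3KO replicate 2. Relative to the contractile genes it was at 0.42 ± 0.66. Of 10 listed skeletal muscle markers 5 were analysed, with 2 above 0 and none called (1 higher and 3 lower at an unadjusted p under 0.05). Acta1 and Ckm, which heart muscle also makes, took most of their sum, which was 697, 6024 and 946 RPKM in Irf3KO libraries, against 231, 628 and 909 RPKM in WT libraries. The high sum was that of Irf3KO replicate 2 alone, where Acta1 stood at 5012 RPKM. Mylpf, a light chain of fast skeletal muscle, stood at 0.99, 0.44 and 0.62 RPKM in Irf3KO libraries, against 2.81, 1.03 and 17.3 RPKM in WT libraries. The listed markers Tnnt3 and Tnni2 were also lower in every Irf3KO library than in any WT library. Both were highest in WT replicate 3, at 17.7 and 5.14 RPKM. Ckm was higher in every Irf3KO library than in any WT library, and the groups of Acta1 overlapped. The part of skeletal muscle in the WT replicate 3 values was not tested.

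Ucp2, the uncoupling protein found in many cell types and abundant in macrophages, did not follow Ucp3. It stood at 73.0, 86.0 and 70.0 RPKM in Irf3KO libraries, against 93.7, 41.6 and 41.0 RPKM in WT libraries (log2 fold change 0.48 ± 0.33, adjusted p = 0.563). WT replicate 1, the lowest library for most members, was the highest for Ucp2, and Ucp2 was the only member with that pattern. The ratio of Ucp2 to Ucp3 per length was 11.03, 29.3 and 18.3 in Irf3KO libraries, against 146, 28.9 and 12.3 in WT libraries. These neighbours on chromosome 7 are shown with their promoter windows because they differ across the libraries; capitals mark AGGTCA and GGGCGG on either strand. The Ucp3 window holds AGGTCA with first bases at -149 and -44 relative to the start and no GC box, and the Ucp2 window holds the GC box, read on the opposite strand, at -79 and 11, and no AGGTCA.
Ucp3 (GRCm38.p6, chr7:100472741-100473040, plus strand): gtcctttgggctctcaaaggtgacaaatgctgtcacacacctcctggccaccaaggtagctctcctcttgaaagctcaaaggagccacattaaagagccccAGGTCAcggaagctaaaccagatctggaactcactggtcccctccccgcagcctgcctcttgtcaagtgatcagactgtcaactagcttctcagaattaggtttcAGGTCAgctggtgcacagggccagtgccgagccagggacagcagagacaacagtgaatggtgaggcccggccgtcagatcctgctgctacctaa
Ucp2 (GRCm38.p6, chr7:100493108-100493407, plus strand): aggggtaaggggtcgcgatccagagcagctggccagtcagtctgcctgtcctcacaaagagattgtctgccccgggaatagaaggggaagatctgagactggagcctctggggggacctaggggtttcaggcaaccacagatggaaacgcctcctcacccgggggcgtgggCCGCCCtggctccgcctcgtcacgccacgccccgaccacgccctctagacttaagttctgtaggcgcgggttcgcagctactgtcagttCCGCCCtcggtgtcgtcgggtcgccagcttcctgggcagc

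**Figure D4:**
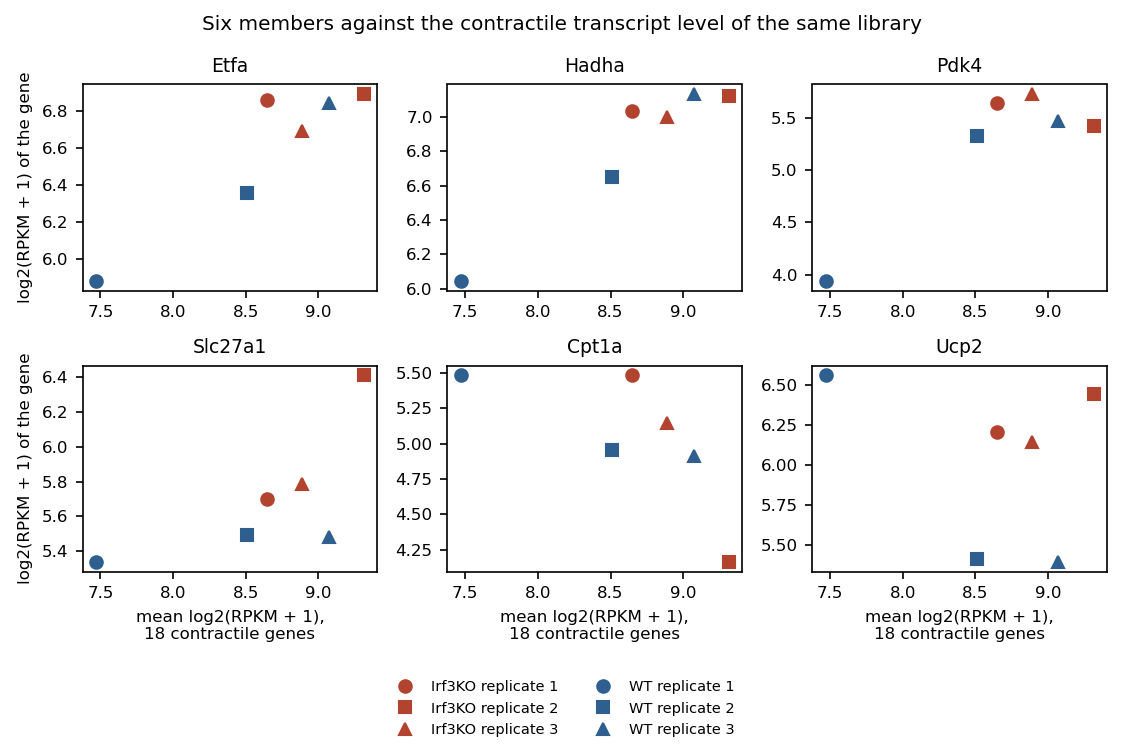
Log2(RPKM + 1) of 6 members in each library against the mean log2(RPKM + 1) of the 18 contractile genes in the same library, red for Irf3KO and blue for WT. Etfa, Hadha and Pdk4 are lowest in WT replicate 1, the library with the lowest contractile level (7.47), where Cpt1a and Ucp2 are at or near their highest.

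Other genes of fatty acid metabolism, 56 of 58 listed being measured, had a smaller shift. The median over these genes was 0.25 on the log2 scale, 40 of 56 were above 0 and none was called (4 had an unadjusted p under 0.05 and were higher, 2 were lower). Gpihbp1, which anchors lipoprotein lipase on capillary endothelium, had the smallest p. It stood at 55.5, 52.0 and 62.6 RPKM in Irf3KO libraries, against 36.3, 35.6 and 35.3 RPKM in WT libraries. The groups did not overlap and both were tight, and the log2 fold change was 0.65 ± 0.18 (limma adjusted p = 0.345). The 10 endothelial markers had a median of -0.15, with 4 above 0, and summed to 281 to 388 RPKM in Irf3KO libraries and 301 to 483 RPKM in WT libraries. The 5 neutrophil markers analysed of 7 had a median of -0.23, with 1 above 0, and summed to 42.3 to 58.9 RPKM in Irf3KO libraries and 35.2 to 95.1 RPKM in WT libraries. None of either list was called or had an unadjusted p under 0.05.

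Acsl3, an acyl-CoA synthetase of lipid droplets, and Cpt1c, the brain form of carnitine palmitoyltransferase 1, were below all WT libraries in every Irf3KO library. They were the only 2 of the 56 other fatty acid genes with that pattern, which was seen in 11.8% of all genes. For 9 of the 56 every Irf3KO library lay above every WT library, as for 6.61% of all genes. Acsl3 stood at 3.68, 1.34 and 2.90 RPKM in Irf3KO libraries, against 4.40, 5.28 and 4.36 RPKM in WT libraries. Cpt1c stood at 5.08, 5.62 and 5.37 RPKM in Irf3KO libraries, against 7.17, 9.39 and 7.09 RPKM in WT libraries. Their log2 fold changes were -0.70 ± 0.27 and -0.47 ± 0.19 (limma adjusted p = 0.556 each). Cpt1c has 2 protein-coding genes between it and Irf3 in GRCm38, and whether DNA linked to the Irf3 allele differs there was not tested. Bdh1, the ketone body dehydrogenase, stood at 11.6, 61.6 and 16.0 RPKM in Irf3KO libraries, against 2.52, 8.65 and 11.6 RPKM in WT libraries (1.65 ± 0.65, adjusted p = 0.556). Pnpla2, the triglyceride lipase, stood at 58.5, 152 and 65.8 RPKM in Irf3KO libraries, against 33.5, 42.0 and 61.1 RPKM in WT libraries (0.91 ± 0.39, adjusted p = 0.556). For Bdh1 and Pnpla2 Irf3KO replicate 2 was far above every other library. Fitm2, of lipid droplet formation, stood at 24.4, 37.6 and 24.9 RPKM in Irf3KO libraries, against 9.52, 15.8 and 25.9 RPKM in WT libraries (0.81 ± 0.35, adjusted p = 0.556). WT replicate 3 lay among the Irf3KO libraries for Fitm2.

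Irf3KO replicate 2 was the highest of all 6 libraries for 15 members, 46.9%, where it was for 24.1% of all genes. It was the lowest for 2 members, Cpt1a and Pparg, where it was for 52.2% of all genes. Set against the mean of the other Irf3KO libraries on the log2 scale, Acads and Mlycd were higher there by 1.16 and 1.14, while Pparg, Cpt1a and Ppargc1a stood at -1.26, -1.15 and -0.83. The members higher there had a higher GC content: Acads and Mlycd have 59.7% and 59.3% GC in their longest annotated transcript and Ppargc1a 41.7%, although Pparg and Cpt1a, at 50.2% and 51.3%, lay in the middle. Across the 32 members the difference correlated with GC content at r = 0.52 and with the logarithm of gene length at r = -0.35, and across 11686 genes with a known GC content at 0.56 and -0.27. The 16 members with the higher GC content had a median difference of 0.39 in that library, and the 16 with the lower one -0.02. Their median log2 fold changes between Irf3KO and WT were 0.51 and 0.43. The part of GC content in the fold changes of single members was not tested, and without Irf3KO replicate 2 the fold changes of Acads and Mlycd were 0.40 ± 0.25 and 0.40 ± 0.18.

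**Figure D5:**
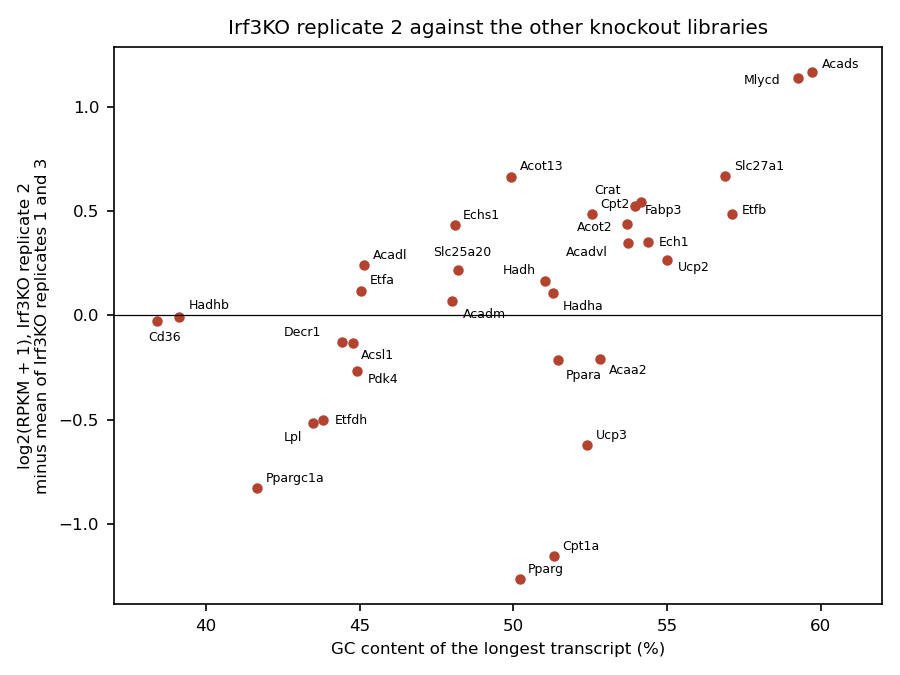
Difference in log2(RPKM + 1) between Irf3KO replicate 2 and the mean of Irf3KO replicates 1 and 3 for each of the 32 members, against the GC content of the longest annotated transcript in percent. Acads and Mlycd, with the highest GC content, are at 1.16 and 1.14, and Pparg and Cpt1a are the lowest points at -1.26 and -1.15.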

How the data were processed

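RNA-seq of infarct tissue from 3 IRF3-/- and 3 wild-type mice was read from a table of RPKM values that the authors deposited, rounded to 2 decimals, with a gene length for each of 12969 genes. STAR 2.3.0, HTSeq 0.6.0, edgeR 3.8.6, SAMtools 0.1.18.0 and Picard 1.100 are named, with build NCBIM37 (mm9), per the submitters' processing notes. The sources used here do not give their settings, the gene filter or the handling of strand and of reads with several matches. Columns were matched by title, and 5 lines with a split gene name, none of a member, were repaired. Depth was estimated from low RPKM values times gene length, which lie 1 read apart.

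Genes that averaged 1 RPKM or more were fitted in R 4.3.3 by limma 3.58.1 on log2(RPKM + 1) (trend, two-sided, Benjamini-Hochberg over 12913 genes, threshold 0.05), Irf3KO against WT. Log2 fold changes are on this scale, which understates changes of low genes. Errors are SE from limma unless named SD. The p-values reflect only how these 3 samples per group vary. Limma draws the variance of each gene towards that of genes of like mean level. For one gene, the smallest p an exact permutation test could give here is 0.1. Levels set against contractile genes are each library minus its mean over 18 genes.

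Members and lists were chosen with earlier results of these data known. By rule, full values are given for the most abundant member of each role class and the 10 with the smallest p. The rule also named Cpt1a, Ppara, Pparg, Ppargc1a, Pdk4, Ucp2 and Ucp3, and of the other fatty acid genes the 6 with the smallest p. Cd36, Hadha, Hadhb, Cidea and Mylpf, and single values of Tnnt3 and Tnni2, were added after their values were seen. Sequences and gene order are RefSeq GRCm38.p6, and GC content, known for 100% of members and 90.5% of genes, is from GENCODE M21. The ratio of Cpt1b to Cpt1a that was planned is not analysed here. Alternatives were other pseudocounts, filters, scalings and weights, a replicate block and each library left out.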

Additional observations from a re-analysis of the deposited data

How the results depend on the processing

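None of 32 members was called higher or lower in Irf3KO under 13 of the 14 alternatives to the uncentred values, and 423 of 446 member results kept their direction and their side of the threshold. The exception was limma with array weights, which rested mostly on Irf3KO replicate 3 and WT replicate 2 (weights of 6.36 and 4.40, the others 0.103 to 1.003): 10 members were called higher, 21 members had an unadjusted p under 0.05 (39.5% of all genes did) and 19 of 56 other fatty acid genes were called (22.9% of all genes were, in either direction). Limma's default estimate of these weights did not converge, so they were estimated gene by gene. Cpt1a then stood at 0.19 and Etfdh at -0.033. The number of members with an unadjusted p under 0.05 was 1 with median-of-ratios scaling (9.13% of all genes, in either direction) and 6 with the replicate block (12.2% of all genes). It was 0 when centred on the contractile genes (an alternative chosen after seeing the data, as was this count). When 1 library was left out it was between 0 and 20. The 20 came without WT replicate 3, where 7.61% of all genes were under that limit, in either direction. Over the fits that left out a library this share of all genes ran from 4.02% to 19.2%, the latter without Irf3KO replicate 1. Centred on the contractile genes, 7 members were above 0, as were 535 of all 12913 genes tested. Median-of-ratios scaling moved the median of all genes by 0.10 on the log2 scale and no member changed direction under it. With each library left out in turn, the number of members above 0 ran from 25 to 32, their median log2 fold change from 0.22 to 0.70, and the median of the other fatty acid genes from 0.14 to 0.28. Members that changed sign ran from -0.18 to 0.51 (Acadm), -0.030 to 0.47 (Acot2), -0.46 to 0.20 (Cpt1a), -0.32 to 0.32 (Etfdh), -0.15 to 0.61 (Lpl), -0.027 to 0.69 (Ppara), -0.12 to 0.53 (Pparg) and -0.73 to 0.29 (Ppargc1a); the cause was not tested.

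Replicate numbers are shared between the groups, but same-numbered libraries did not deviate together (correlations of deviations 0.13, -0.10 and -0.10 for numbers 1 to 3), so they were not taken as pairs. With the replicate block 1 of the other fatty acid genes was called, Bdh1 (limma adjusted p = 0.00231), and 0 members were, where 1.94% of all genes were called. The ratio of Cpt1b to Cpt1a and its alternatives were not run. With 3 animals per group the intervals are wide, and depth, 14.8 to 61.9 M reads, limits mainly the lowest values such as Ucp3 in WT replicate 1.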
